A study of Drosophila melanogaster with 24 samples.

Results

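The 11 transcripts described here were near the background of the array in flies on the AL diet and were detected in flies on DR, with and without the drug RU486. They were chosen from 16637 transcripts by their measured levels. The median of each AL group had to be at most 7.5 log2 and that of each DR group at least 8.2. The DR minus AL difference with RU486 had to be at least 0.5 times that without it, and at least 1 of the 2 differences had to be below 1.3. The choice therefore used the diet contrasts, and the diet values below are a description with no test. Against the background measured with random control probes on each array, 131 of 132 values of the 11 transcripts lay above it on DR arrays and 5 of 132 on AL arrays. The limits of the rule make both counts likely. Of all 16637 transcripts, 13611 to 14350 lay above background on a DR array and 12945 to 13766 on an AL array.

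The study profiled whole female flies aged 13 days, in 4 groups of 6 pools of about 35 flies. These were DR with RU486, DR without RU486, AL with RU486 and AL without RU486. DR flies had been on that food for 10 days, and the labels do not spell out AL. Flies of all groups, the AL flies without the drug included, were labelled +/+; Act5c-GS-Gal4/+; P{GD3482}v8105 /+. They carried 1 copy of the driver and 1 of the RNAi insertion. The labels do not name its target. From general knowledge of RNAi stocks it is ACC, which makes malonyl-CoA, the building block of fatty acids. Effects of the drug and of the transgene it switches on cannot be told apart in these groups.

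Dietary restriction extends lifespan in flies and is known to shift metabolism and to reduce egg laying. GeneSwitch is a form of the yeast activator Gal4 that drives genes under its binding sites only in the presence of RU486, here under the promoter of the ubiquitous actin gene Act5C. On an oligonucleotide array a transcript that is absent or scarce still gives some brightness, since labelled material binds weakly to any probe. Random control probes show how bright that is. In RNA of whole flies, fewer cells of a type and less RNA per cell cannot be told apart. The identifiers are FlyBase transcript numbers, and none of the 11 is paired with a gene in the table used here, so no gene name or role is given.

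Few transcripts that were low on AL reached the DR limit of 8.2 log2. That limit lies above the background of every DR array, so transcripts detected on DR below it are not counted here. Both AL medians were at most 7.5 log2 for 2782 transcripts, and 22 of these had both DR medians at 8.2 or more. The 11 transcripts are those among the 22 that also met the conditions on the differences. Of the other 11, 9 had both differences at 1.3 or more, and 2 had a difference with RU486 under 0.5 times that without it. The diet bounds of those other 11, formed as below, ran from at least 1.42-fold to at least 7.86-fold with RU486. Without it they ran from at least 2.77-fold to at least 11.8-fold. FBtr0085056, with the highest bounds, was above background on 1 AL array with RU486 and 2 without it. With the diets exchanged, 2677 transcripts had both DR medians at most 7.5 log2, and 3 of these had both AL medians at 8.2 or more.

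The random control probes were dimmer on DR. Their medians were 6.997 to 7.09 log2 on DR arrays with RU486 and 6.98 to 7.02 on those without, against 7.13 to 7.196 on AL arrays with RU486 and 7.12 to 7.19 on those without. The background of an array, the 95th percentile of averages of 8 random probes, was 7.36 to 7.603 log2 on DR with RU486 and 7.35 to 7.41 on DR without it, against 7.51 to 7.67 on AL with RU486 and 7.45 to 7.68 on AL without it. When every array was centred on its random probes the rule chose 18 transcripts, with all of the 11 among them. Array AL with RU486 pool 1 had an SD of deviations from its group means of 0.365 log2 over all transcripts, and DR with RU486 pool 3 had 0.228. The other 22 arrays lay between 0.101 and 0.159.

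**Figure D1:**
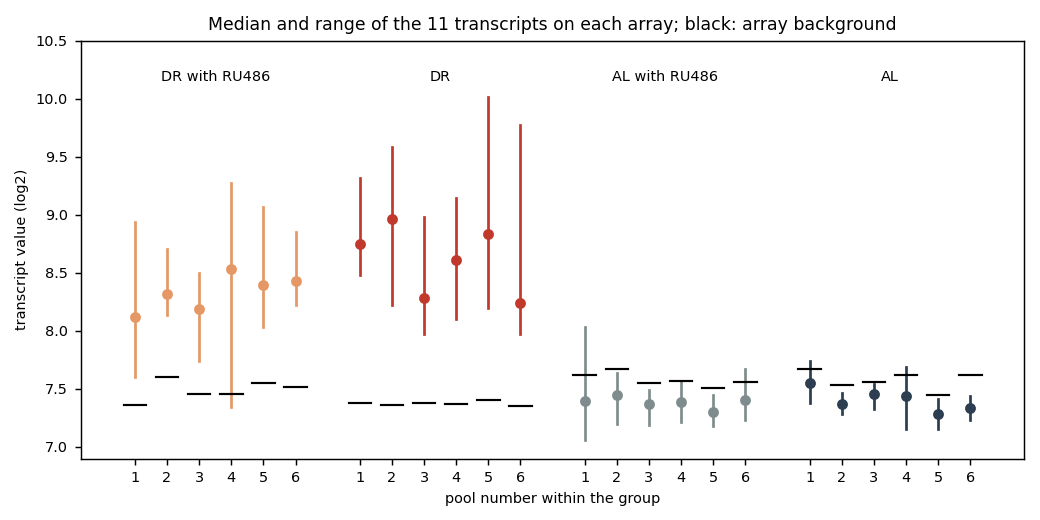
Median (point) and range (line) of the 11 transcripts on each of the 24 arrays, in log2, with the array's background as a black line. Medians are 8.12 to 8.54 on DR and 7.30 to 7.45 on AL with RU486, and 8.24 to 8.97 on DR and 7.28 to 7.55 on AL without it.

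The median of the 11 transcripts on an array summarises the pattern. With RU486 it lay between 8.12 and 8.54 log2 on DR arrays and between 7.30 and 7.45 on AL arrays. Without RU486 it lay between 8.24 and 8.97 log2 on DR and between 7.28 and 7.55 on AL. DR and AL arrays did not overlap in this median, as the choice by level makes likely.

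The choice was repeated without each array in turn, and the transcripts so chosen were read on the array left out. On DR arrays with RU486 the number at 8.2 log2 or more was from 3 of 10 on pool 3 to 7 of 7 on pool 6, and pool 1 had 5 of 14. All lay above the array's background there except 1 of 12 on pool 4. On the 6 DR arrays without RU486 between 8 of 12, on pool 6, and 12 of 12, on pool 2, were at 8.2 or more, and all lay above background. On AL arrays with RU486 between 8 of 10 and 10 of 10 were at most 7.5 log2, and 0 lay above background. On AL arrays without RU486 between 3 of 12, on pool 1, and 9 of 9, on pool 5, were at most 7.5, and 0 to 2 lay above background.

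With RU486 the DR and AL pools did not overlap for 9 of the 11 transcripts, and without RU486 they did not overlap for any of the 11. Of all transcripts, 14.1% were higher on DR without overlap when RU486 was given, and 24.0% when it was not. The choice used these contrasts, so nothing is read from the counts. Because most AL values lay at or below background, a fold change is given as a lower bound. It sets the DR mean against the AL mean with each AL array raised to its background where it was below. The bounds ran from at least 1.45-fold to at least 2.06-fold with RU486 and from at least 1.66-fold to at least 2.96-fold without it.

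**Figure D2:**
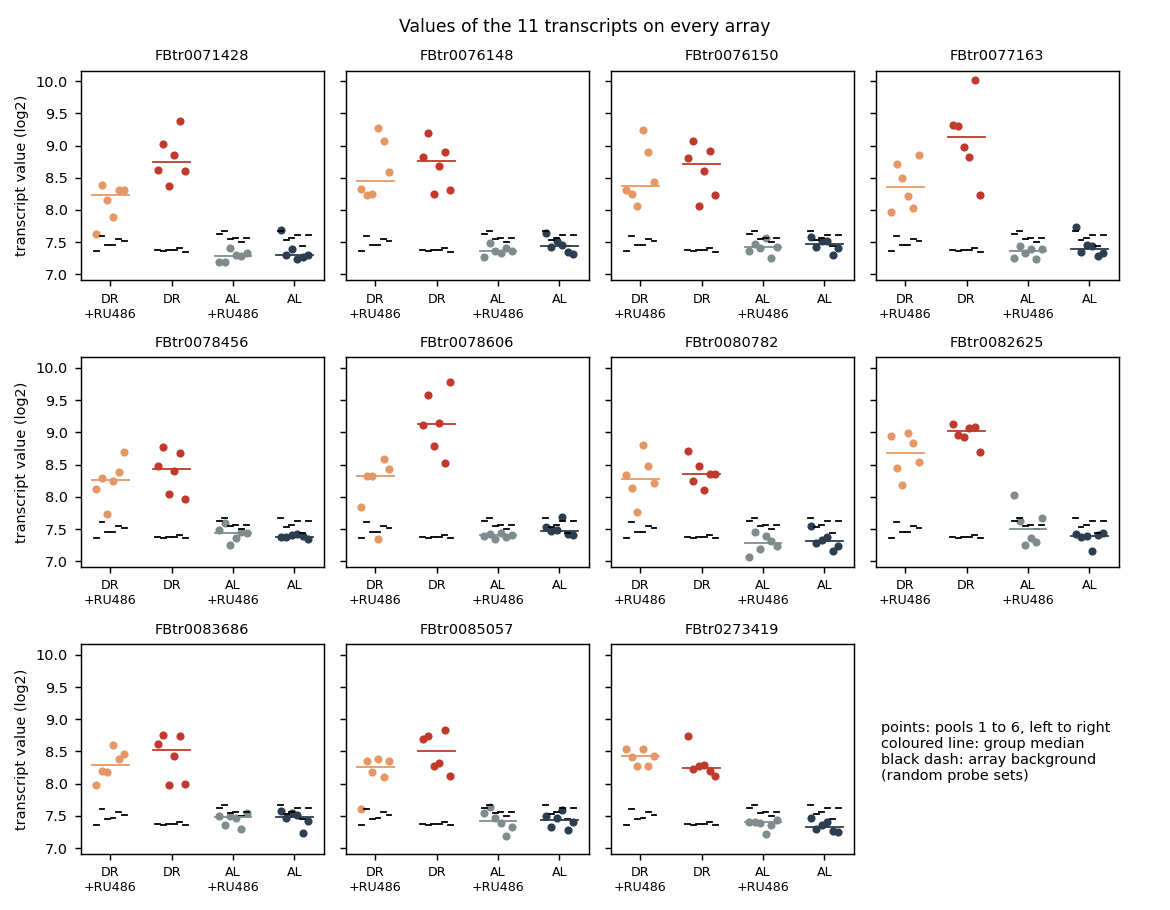
Log2 value of each of the 11 transcripts in pools 1 to 6 of the 4 groups, with the group median as a coloured line and each array's background as a black dash. All values on DR without RU486 lie above background, and 3 of the 66 on AL without it do. The limits of the rule make these counts likely.

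FBtr0078606, FBtr0077163 and FBtr0071428 were the 3 transcripts that fell with RU486 on DR. Without RU486 each had a diet difference above 1.3 log2, so the rule required a smaller one with the drug. The p-values of their falls are therefore given as a description. On DR, FBtr0078606 had a lowest, median and highest value of 7.34, 8.32 and 8.59 log2 with RU486, against 8.52, 9.12 and 9.78 without it. Of the 6 pools with RU486, 5 lay below every pool without it. The difference was −1.01 ± 0.18 log2 (SE, limma adjusted p = 0.00099). Pool 4 with RU486, at 7.34, was the only DR value of the 11 transcripts that lay below its array's background.

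For FBtr0071428 the values on DR were 7.63, 8.23 and 8.39 log2 with RU486, against 8.37, 8.74 and 9.38 without it. Again 5 of 6 pools with RU486 lay below every pool without it, and the difference was −0.69 ± 0.13 log2 (SE, limma adjusted p = 0.0020). For FBtr0077163 they were 7.96, 8.36 and 8.85 log2 with RU486, against 8.24, 9.14 and 10.02 without it. Here 3 of 6 pools with RU486 lay below every pool without it, and the difference was −0.73 ± 0.19 log2 (SE, limma adjusted p = 0.013).

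Of these 3 transcripts, FBtr0078606 lay above background on DR with RU486 in 5 of 6 pools, and FBtr0077163 and FBtr0071428 in 6 of 6. The limits of the rule on the group medians make these counts likely, and also those on AL that follow. On AL with RU486, 0 of 6 pools were above background for any of the 3. On AL without RU486 they had lowest, median and highest values of 7.41, 7.47 and 7.69 log2 (FBtr0078606), 7.24, 7.30 and 7.69 (FBtr0071428) and 7.28, 7.39 and 7.74 (FBtr0077163). Each was above background in 1 of 6 of these pools. With RU486 the bounds on the diet difference were at least 1.48-fold for FBtr0078606, 1.74-fold for FBtr0077163 and 1.45-fold for FBtr0071428, and without it they were 2.96-fold, 2.88-fold and 2.35-fold in the same order. With RU486, the pools of FBtr0078606 on DR overlapped those on AL.

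The values used in the choice are averages over 8 probes, so the probes give no separate support for the falls. All 8 probes of FBtr0078606 were lower with RU486 on DR, by −1.71 to −0.42 log2 in group means, as were all 8 of FBtr0077163, by −0.91 to −0.36, and all 8 of FBtr0071428, by −1.19 to −0.06. The smallest of these belonged to probe P00158 of FBtr0071428. Its mean was 8.31 log2 on DR and 8.14 on AL with RU486, and 8.37 on DR and 8.29 on AL without it. The other 7 probes of FBtr0071428 had means of 8.50 to 9.39 on DR and 6.94 to 7.70 on AL without RU486.

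Over all 11 transcripts, 3 fell and 0 rose with RU486 on DR, against 7.78% and 5.95% of all transcripts, and 13.7% of all transcripts in either direction. The median difference of the 11 was −0.15 log2, and that of all transcripts 0.0047 log2. The share of all transcripts rested on single arrays. Those lower numbered 1294 in the fit of all arrays, 666 without pool 5 of DR, 732 without pool 3 of DR with RU486 and 2102 without pool 1 of AL with RU486, while 3, 3 and 4 of the 11 were lower. Those higher numbered 990, and 427, 613 and 1813 without the same arrays. The choice bears on the count among the 11. For the 5 transcripts with a diet difference of 1.3 log2 or more without RU486, the condition that 1 difference lie below 1.3 required a smaller one with RU486. The 3 that fell are among these 5, and their count and p-values are given as a description. Other conditions limited how far a transcript could fall. The DR median with RU486 had to be at least 8.2 log2. The difference with RU486 had to be at least 0.5 times that without it, and 2 transcripts inside both level limits missed this. The interaction term, the RU486 difference on DR minus that on AL, passed for 2 of the 11, both lower, against 3.19% of all transcripts, and the choice used it through the 2 diet differences, so nothing is read from this count. These were FBtr0078606 and FBtr0071428. The call of FBtr0071428 was lost in 21 of 33 alternatives, the replicate block among them, and that of FBtr0078606 without pool 2 of DR. Transcripts with a lower interaction term numbered 530, and 299 without pool 5 of DR, 836 without pool 1 of AL with RU486 and 868 without pool 1 of DR with RU486. The DR pools with and without RU486 overlapped for all 11, while 2.49% of all transcripts were lower with RU486 without overlap.

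**Figure D3:**
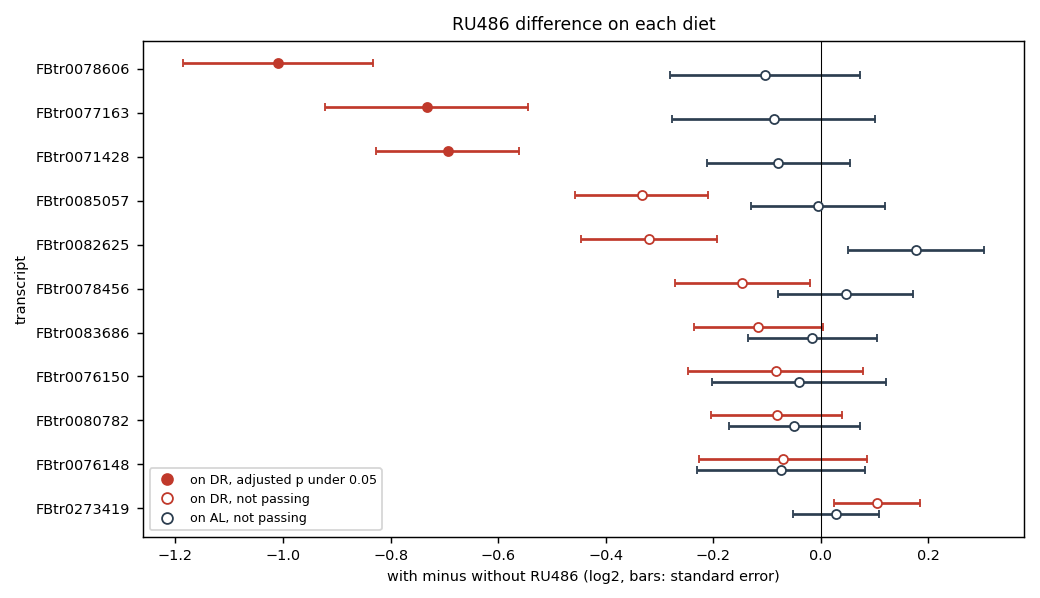
Difference with minus without RU486 of each of the 11 transcripts on DR (upper point) and on AL (lower point), in log2 with the standard error. Filled points mark the 3 that passed, FBtr0078606, FBtr0077163 and FBtr0071428 on DR; differences on AL lie between −0.10 and 0.18.

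On AL the drug moved none of the 11 past the threshold in limma, 0 of 11, against 0.625% of all transcripts, and 0 of 11 had an unadjusted p under 0.05. The rule held both AL medians at 7.5 log2 or less and so limited any rise there. Nothing is read from these counts. The differences lay between −0.10 and 0.18 log2 (adjusted p from 0.73 to 0.997). Of the AL values 5 of 132 lay above background, so a lower level with RU486 was not detectable here. The largest difference was that of FBtr0082625, whose 6 AL pools with RU486 had a lowest, median and highest value of 7.25, 7.498 and 8.03 log2, against 7.15, 7.397 and 7.44 without it. It was above background in 2 of 6 pools with RU486 and in 0 of 6 without. The highest value came from pool 1, the array with the SD of 0.365 log2.

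FBtr0076148 and FBtr0076150 had nearly the same values in each DR pool. On DR, FBtr0076148 had a lowest, median and highest value of 8.24, 8.46 and 9.27 log2 with RU486 and of 8.24, 8.76 and 9.19 without it. FBtr0076150 had 8.07, 8.37 and 9.24 log2 with RU486 and 8.05, 8.71 and 9.07 without it. On DR without RU486 the 6 pools stood in the same order for both, with pool 2 highest and pool 3 lowest, and the 2 transcripts differed by at most 0.19 log2 in any pool. With RU486 on DR, 4 of 6 pools had the same rank and pool 4 was highest for both.

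On AL, at background, this order was not shared. There 0 of 6 pools with RU486 and 2 of 6 without it had the same rank for both transcripts. FBtr0076148 was between 7.28 and 7.49 log2 on AL with RU486 and between 7.31 and 7.64 without it, and FBtr0076150 was between 7.26 and 7.56 with RU486 and between 7.30 and 7.57 without it. Both were above background on 0 of 12 AL arrays. The diet bounds were at least 2.06-fold with and 2.17-fold without RU486 for FBtr0076148, and at least 1.93-fold with and 2.06-fold without RU486 for FBtr0076150. With RU486 on DR their differences were −0.07 ± 0.16 and −0.08 ± 0.16 log2 (SE, limma adjusted p = 0.81 and 0.77), neither past the threshold.

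Within both, the probe with the highest number had the largest diet difference. Differences of single probes are given as measured. Since 0 of the 88 probes of the 11 transcripts lay above the 95th percentile of single random probes on 10 or more of 12 AL arrays, they are lower bounds where AL was at background. In FBtr0076148 probe P00201, the last, differed by 1.75 log2 with and 1.98 without RU486, and probe P00002, the first, by 0.71 and 0.59. In FBtr0076150 the last probe, P00203, differed by 1.69 log2 with and 2.14 without RU486. The first, P00013, differed by 1.44 and 1.27. The number is that in the probe's name, and what it counts is not given in the sources used here. With RU486 on DR the 5 lowest-numbered probes of FBtr0076150 were higher by 0.02 to 0.22 log2 and the other 3 lower by −0.57 to −0.27.

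In FBtr0085057, FBtr0082625 and FBtr0080782 a single probe was brighter on DR than the other 7. For FBtr0085057 it was P00715, with 10.43 log2 on DR and 7.39 on AL with RU486, and 11.03 on DR and 7.25 on AL without it. It lay above the 95th percentile of single random probes on 12 of 12 DR arrays and 0 of 12 AL arrays. The other 7 had means of 7.24 to 8.78 log2 on DR with RU486 and of 7.26 to 9.39 without it, and were above that percentile on 0 to 2 AL arrays each. As a whole FBtr0085057 had a lowest, median and highest value of 7.61, 8.26 and 8.39 log2 on DR and 7.18, 7.42 and 7.64 on AL with RU486, and of 8.11, 8.50 and 8.83 on DR and 7.28, 7.44 and 7.59 on AL without it. With RU486 the diets overlapped by pool 1 on DR, at 7.61.

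For FBtr0082625 the probe was P01522, with 11.46 log2 on DR and 8.47 on AL with RU486, and 12.06 on DR and 7.97 on AL without it. This probe lay above that percentile on 12 of 12 DR arrays and 7 of 12 AL arrays. As a whole FBtr0082625 had a lowest, median and highest value of 8.19, 8.69 and 8.98 log2 on DR with RU486 and of 8.69, 9.02 and 9.12 without it. For FBtr0080782 the probe was P00700, with 10.33 log2 on DR and 7.86 on AL with RU486, and 10.46 on DR and 7.89 on AL without it. FBtr0080782 had 7.77, 8.28 and 8.81 log2 on DR and 7.06, 7.28 and 7.45 on AL with RU486, and 8.101, 8.35 and 8.72 on DR and 7.16, 7.31 and 7.55 on AL without it.

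In each of these 3 the probe was the one with the highest number in the set. That was so for 6 of the 11 transcripts. Leaving out the probe of the largest difference lowers the diet difference of any transcript by construction. Without that probe, 4 of the 11 met the rule, FBtr0082625 among them. FBtr0085057 then had medians of 7.90 log2 on DR and 7.44 on AL with RU486 and of 8.13 and 7.46 without it, FBtr0080782 7.99 and 7.17 with RU486 and 8.05 and 7.22 without it. With RU486 on DR, FBtr0085057 differed by −0.33 ± 0.12 log2 (SE, limma adjusted p = 0.073), FBtr0082625 by −0.32 ± 0.13 (adjusted p = 0.091) and FBtr0080782 by −0.08 ± 0.12 (adjusted p = 0.70). None of the 3 passed. FBtr0085057 passed in 2 alternatives (adjusted p = 0.029 and 0.036), and FBtr0082625 in 3 (adjusted p from 0.038 to 0.047).

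**Figure D4:**
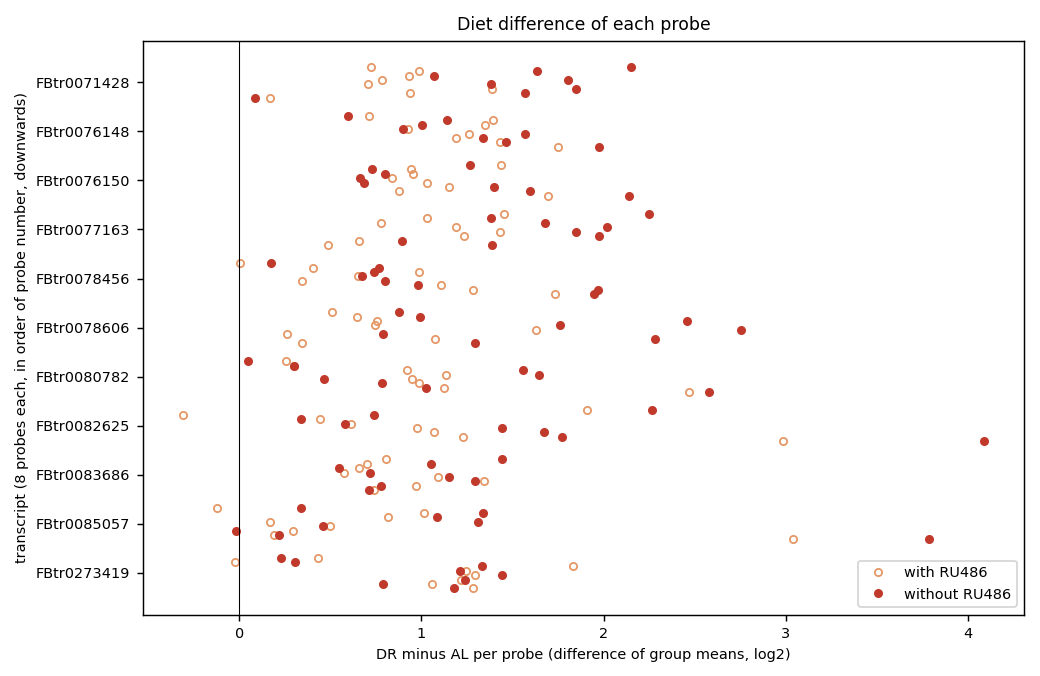
DR minus AL difference of group means for each of the 8 probes of the 11 transcripts, in log2, with RU486 (open) and without it (filled), with probe numbers rising downwards within a transcript. In FBtr0085057, FBtr0082625 and FBtr0080782 the last probe lies to the right of the other 7, while in FBtr0083686 the 8 lie between 0.57 and 1.34 with RU486 and between 0.55 and 1.44 without it.

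Of the 88 probes, 84 were higher on DR in both diet comparisons, and all 8 were so in 8 transcripts. The choice by diet difference makes this likely. Taken singly, 51 of the 88 lay above the 95th percentile of single random probes on 10 or more of 12 DR arrays. With RU486 on DR, 67 of the 88 were lower, among them all 8 of FBtr0078606, of FBtr0077163 and of FBtr0071428. The shares over all probes of the array were not computed, so nothing is read from these counts.

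FBtr0083686, FBtr0078456 and FBtr0273419 did not pass for RU486 on DR. FBtr0083686 had a lowest, median and highest value of 7.99, 8.29 and 8.60 log2 on DR and 7.29, 7.48 and 7.55 on AL with RU486, and of 7.97, 8.52 and 8.76 on DR and 7.24, 7.49 and 7.57 on AL without it. Its probes were the most alike of the 11, with diet differences of 0.57 to 1.34 log2 with RU486 and 0.55 to 1.44 without it. FBtr0078456 had 7.74, 8.27 and 8.69 log2 on DR and 7.25, 7.45 and 7.598 on AL with RU486, and 7.97, 8.44 and 8.77 on DR and 7.34, 7.38 and 7.43 on AL without it. Its first probe, P00017, differed by 0.01 log2 with and 0.17 without RU486, and its last, P00457, by 1.73 and 1.95.

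FBtr0273419 was the only one of the 11 whose level on DR was higher with RU486 in the fit, a direction that turned with medians over probes (−0.042 log2). It had 8.28, 8.42 and 8.54 log2 on DR and 7.21, 7.399 and 7.44 on AL with RU486, and 8.11, 8.25 and 8.75 on DR and 7.25, 7.33 and 7.46 on AL without it. The difference on DR was 0.10 ± 0.08 log2 (SE, limma adjusted p = 0.40). It was 0.19 and passed (adjusted p = 0.047) when pool 1 of DR without RU486 was left out. For FBtr0083686 the difference was −0.12 ± 0.12 log2 (adjusted p = 0.55) and for FBtr0078456 −0.15 ± 0.13 (adjusted p = 0.47), neither past the threshold. These 3 were above background on 12 of 12 DR arrays and 0 of 12 AL arrays.

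The 11 transcripts varied more between DR pools than between AL pools. Their SDs ran from 0.118 to 0.465 log2 with a median of 0.314 on DR with RU486, and from 0.159 to 0.593 with a median of 0.357 on DR without it. On AL the medians were 0.0955 with RU486 and 0.114 without it, at levels set by background. The 1316 and 1903 transcripts with group means in the same range on DR had median SDs of 0.139 with RU486 and 0.129 without it, and 90th percentiles of 0.257 and 0.230. On DR without RU486, pools 3 and 6 were the lowest for 9 of the 11 transcripts and pools 1, 2 and 5 the highest for 10. On DR with RU486, pools 1 and 3 were the lowest for 9 and pool 4 the highest for 6. Over all transcripts, pool 3 of that group had its lowest array median, 9.53 log2, and pool 4 its highest, 9.74. Pool 1 of that group, at 9.71, was not low. On DR without RU486 pool 6 had the highest array median, 9.72. Whether the order of pools follows the brightness of whole arrays was not tested. Pools of a group are separate pools of flies, and no further difference between them is labelled.

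Transcripts whose numbers adjoin those of the 11 were read as well, a choice made after values were seen. Of 34 other transcripts within 2 numbers of 1 of the 11, 7 were higher on DR by at least 0.5 log2 in group medians both with and without RU486. That is 20.6%, against 12.4% of all transcripts. A single one, FBtr0082623, was lower on DR by that much, with −0.65 log2 with and −0.56 without RU486. The share of all transcripts lower by that much was not computed, so the directions are not compared. Of the 7, FBtr0085055, FBtr0085056 and FBtr0085058 all lie by FBtr0085057. FBtr0085055 and FBtr0085056, next to FBtr0085057, were above background on 3 of 12 AL arrays each. They were higher on DR by at least 8.64-fold and 7.86-fold with RU486 and by at least 12.9-fold and 11.8-fold without it. FBtr0078607, next to FBtr0078606, exceeded background in 7 of 12 AL pools, and its bounds were at least 2.11-fold with and 6.43-fold without RU486. FBtr0080783, next to FBtr0080782, exceeded background in all 12 AL pools and was higher on DR by 1.53 log2 with and 1.62 without RU486.

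FBtr0076149 lies between FBtr0076148 and FBtr0076150 by number, and was higher on DR by 1.13 log2 with and 1.62 without RU486. Its AL medians, 8.63 with and 8.56 without RU486, were over the limit of 7.5. FBtr0071427, next to FBtr0071428, had medians of 8.17 log2 on DR and 7.32 on AL with RU486, and of 9.02 on DR and 7.35 on AL without it. It missed the DR limit by 0.03 log2. FBtr0085058, next to FBtr0085057, missed the AL limit by 0.02 log2, with a median of 7.52 on AL with RU486. Whether such neighbours belong to 1 gene or share probe sequence was not analysed here.

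At the limits the choice turned on small differences. Just inside lay FBtr0082625, with a median of 7.498 log2 on AL with RU486 and a margin of 0.0023. FBtr0083686 had a margin of 0.01 log2 and FBtr0078606 of 0.03, both by their median on AL without RU486. Just outside lay FBtr0110959, with a median of 8.18 log2 on DR with RU486, and the FBtr0085058 and FBtr0071427 described above.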

How the data were processed

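RNA of whole-fly pools was measured on 24 one-colour (Cy3) NimbleGen arrays. Per the labels, each array held 1 pool. The deposited table gives log2 intensity for each probe. Base 2 was inferred from the range of values. The submitters' processing notes name limma without a version, and the background correction and normalization are not given in the sources used here. The values were used as given. The 132999 transcript probes were averaged to 16637 transcripts, and all members have 8 probes. From 4091 random control probes 511 averages of 8 were formed on each array, and their 95th percentile served as its background. A linear model with 1 mean per group was run on all 24 arrays and 16637 transcripts (R 4.3.3; limma 3.58.1, functions lmFit and eBayes). The threshold was a Benjamini-Hochberg adjusted p of 0.05 across all transcripts. The fit was tested on simulated data. Its diet contrasts were not used as tests, since the choice had used them. No slide or date was given as a batch.

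The members and all choices were made with earlier results of these data known. The naming rule took members by extreme differences, spread between pools or between probes, brightness on DR, calls and nearness to a limit. It left out 1 member, FBtr0273419, which is named because every member is accounted for. None of the members was in the table of RefSeq genes of assembly Release 6, where 16 transcripts of the array had 1 symbol and 28 had several. None of 25 marker symbols for tissues of the fly, or for the RNAi target, was matched to a transcript, 0 in all, so tissue and knockdown were not checked. Pool numbers were checked as pairs: deviations from group means of arrays with the same number had a median correlation of −0.03, and 6 of 36 pairs were over 0.1. Figures were drawn with matplotlib 3.10.9.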

Additional observations from a re-analysis of the deposited data

Results flagged for a closer look

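Of 44 sets of 6 pools, 5 held a pool that stood apart from the other 5 by Dixon's test at the 95% level, and chance marks about 1 in 20. On DR with RU486, FBtr0085057 had 7.61 log2 in pool 1, against 8.104 to 8.39 in the other pools. On DR without RU486, FBtr0273419 had 8.75 log2 in pool 1, against 8.11 to 8.29. On AL without RU486, FBtr0071428 had 7.69 log2 in pool 1, against 7.24 to 7.39, FBtr0077163 had 7.74 in pool 1, against 7.28 to 7.45, and FBtr0082625 had 7.15 in pool 4, against 7.37 to 7.44.

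The RU486 difference on DR differed from that on AL by the interaction term in limma for 2 of the 11 transcripts, both lower, against 3.19% of all transcripts lower. It was −0.91 log2 for FBtr0078606 (adjusted p = 0.031) and −0.61 for FBtr0071428 (adjusted p = 0.0496). The rule that chose the transcripts used both diet differences and so this contrast, and nothing is read from the count. AL values lay at background with RU486, so a change on AL could not be read below it. The call of FBtr0078606 did not hold when pool 2 of DR without RU486 was left out (adjusted p = 0.054), and that of FBtr0071428 in 21 of 33 alternatives (adjusted p from 0.0504 to 0.090), with 0.062 under the replicate block.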

How the results depend on the processing

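The choice of transcripts depended on the limits and the scaling. In place of 11, it gave 7 after quantile normalization, 5 after centring on array medians and 18 after centring on random probes, with 4, 4 and 11 of the 11 among them. It gave 8 with group means in place of medians, with 7 of the 11 among them, and 15 with medians over probes, with 8. Without the 2 arrays that stand apart it gave 11, with 9 of the 11. Of those that fell with RU486 on DR, FBtr0078606 and FBtr0071428 were lost with group means and FBtr0077163 without the 2 arrays. The choice gave 4 with an AL limit of 7.4 log2, 22 with 7.6 and 5 with a DR limit of 8.3. Without the probe of largest difference it gave 4. That alternative was added after the data were seen, and it lowers the diet difference by construction. Without 1 array it gave 7 to 14, with 7 when pool 6 of the DR group given RU486 was left out. On AL arrays 1 value lay above the 99th percentile of random probe sets, in place of 5 above the 95th.

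The number that fell with RU486 on DR was 3 to 4 without 1 array. The number passing for RU486 on DR lay within 1.5 times in each of 33 alternatives. On AL the number passing was 0 in each, which the rule's limit on the AL medians makes likely. With the replicate block the number on DR was 3 and that on AL 0, as without it. The interaction term passed for 1 of the 11 with the block, in place of 2, and for 0 to 3 without 1 array. Pool numbers were not shown to pair the arrays.

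Differences with RU486 on DR that did not pass turned in sign in some fits. FBtr0076148 was at 0.0065 log2 after quantile normalization, 0.030 without DR pool 2, 0.0069 without DR with RU486 pool 2 and 0.0040 without its pool 3 or the 2 arrays that stand apart. FBtr0076150 was at 0.030 with medians over probes, 0.0070 without DR pool 2 and 0.0086 without DR with RU486 pool 3 or the 2 arrays. FBtr0080782 was at 0.065 with array weights and 0.023 without DR with RU486 pool 3 or the 2 arrays, and FBtr0273419 at −0.042 with medians over probes. Fits without 1 array spanned −0.20 to 0.030 for FBtr0076148 and −0.23 to 0.0086 for FBtr0076150. The cause was not tested.

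With RU486 the median diet difference of all transcripts was −0.04 log2 as deposited, −0.13 after centring on array medians and 0.07 after centring on random probes. Without RU486 the medians were −0.07, −0.19 and 0.09 log2. For RU486 on DR the calls were 990 higher and 1294 lower, 1146 and 1084, and 491 and 1742. The diet differences of the 11 are not weighed here, since the choice fixed them. AL values near background limit what any difference there can show.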
